A study of Mus musculus with 30 samples.

Results

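Transcripts of 9 genes that encode heparan sulfate proteoglycans or the enzymes that trim their chains were followed in mouse forelimb buds after WNT ligand secretion was blocked. The set was chosen by name and comprised 2 extracellular sulfatases (*Sulf1* and *Sulf2*), 4 syndecans (*Sdc1*, *Sdc2*, *Sdc3* and *Sdc4*) and 3 glypicans (*Gpc1*, *Gpc2* and *Gpc6*), out of 50833 genes with counts and 20569 protein-coding genes among them. All 9 genes were found once in both tables and passed the filter on low counts in every comparison. PolyA RNA-sequencing was performed on 30 forelimb bud libraries, with 3 replicates in each of 10 groups. Pregnant wild-type (WT) Swiss Albino females were injected at E10.5, either with the solvent DMSO or with the porcupine inhibitor Wnt-C59 (C59) dissolved in DMSO, and embryos were collected 1, 6, 12, 18 or 24 h later. Porcupine is the enzyme that attaches a lipid to WNT ligands so that they can be secreted. Both arms received DMSO, but by the study's methods their vehicles differed. Controls received DMSO in PBS, and C59 was diluted in PBS with methylcellulose, Tween-20 and DMSO, so that inhibitor and vehicle cannot be told apart. Each replicate was RNA from 1 pair of forelimb buds, and litters are not given in the labels. C59 reached the whole embryo through the mother, so that no limb cell type was targeted on its own.

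Heparan sulfate is a sulfated sugar chain attached to core proteins at the cell surface and in the extracellular matrix, where it binds WNT, FGF, BMP and hedgehog ligands. Syndecans carry these chains on transmembrane core proteins and glypicans on core proteins tethered to the membrane by a lipid anchor. The extracellular SULF enzymes remove 6-O-sulfate groups from finished chains, which changes the ligands they bind, and heparan sulfate is known to be required for limb outgrowth and for the growth of cartilage.

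The total count per library ranged from 18188636 to 38974885. *Axin2*, a direct readout of canonical WNT signaling, was lower in the C59 libraries by 1.97 ± 0.063 (log2 ± SE) at 6 h and by 1.45 ± 0.058 at 12 h, and at 24 h the difference was -0.08 (edgeR, adjusted p = 0.507). The 6 limb mesenchyme markers were present in all libraries, with summed levels of 1080 to 1803 counts scaled to library size (CPM, with TMM factors). Y-linked transcripts differed between the arms at the first 2 time points. At 6 h they summed to 19.8 to 33.2 FPKM in C59 and to 0 in DMSO, so that embryo sex differed. At 1 h they summed to 21.2 to 38.2 FPKM in C59 and to 7.66, 9.03 and 0.0469 FPKM in DMSO. The sex of DMSO 1 h replicates 1 and 2 is uncertain from these levels. At 12 h 1 of 3 libraries in each arm exceeded 10 FPKM. C59 18 h replicate 3 stood apart from its group in most of the 9 genes, with 776 CPM for *Sulf2* against 620 and 637 and 34.5 CPM for *Sdc2* against 52.8 and 53.1, and the differences of the 9 genes at 18 h are given with and without it. *Sdc3* had 0.22 ± 0.12 at 18 h and 0.07 without that library, and *Gpc2* had -0.10 ± 0.15 and -0.13, and none of these passed. Over all genes other libraries stood apart as well, by the chi-square per degree of freedom of their counts against the other replicates. It was 43.2 and 36.4 for C59 18 h replicate 3, 46.2 and 39.0 for DMSO 6 h replicate 1, and 39.8 and 32.0 for DMSO 18 h replicate 1. C59 24 h replicate 2 had 46.6 and 34.8, and DMSO 1 h replicate 1 had 22.9 and 25.2.

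Levels differed widely between the 9 genes. On the FPKM scale, which corrects for transcript length, *Sulf2* was the most abundant in DMSO at 1 h with 120 ± 1.74 (SD, n = 3), followed by *Sdc1* with 84.7 ± 0.609, *Gpc1* with 52.0 ± 1.07, *Gpc2* with 30.2 ± 1.71, *Sdc3* with 27.2 ± 0.893, *Gpc6* with 16.9 ± 0.966 and *Sdc2* with 10.8 ± 0.437. *Sulf1* with 4.52 ± 0.431 and *Sdc4* with 3.88 ± 0.251 were the lowest, and the ranges of these neighbours in the order overlapped. By 24 h in DMSO *Sulf1* had moved from the eighth to the fifth place in this order, with 34.1 ± 1.25 FPKM. In C59 at 12 h it took the sixth place with 36.8 ± 6.38 FPKM, and the ranges of *Gpc1*, *Gpc2*, *Sdc3* and *Sulf1* overlapped from each neighbour to the next. *Gpc3* and *Gpc4*, glypican genes on chromosome X, occurred in the FPKM table alone, where *Gpc3* made up 78.8% ± 0.693 of the summed FPKM of 5 glypicans (SD, n = 3, DMSO 1 h). *Gpc4* had 8.68 ± 1.02 FPKM, below each of the 3 glypicans described here.

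Upstream sequence is shown for *Sdc1* and *Sdc4*, because these syndecans differed in opposite directions at 12 h. RefSeq windows from 250 bases before to 50 bases after the start site (GRCm38.p6) were matched by symbol for 5 of the 9 genes. The 250 bases before the start of *Sdc1* (chr12:8771146-8771395, plus strand) and of *Sdc4* (chr2:164443189-164443438, minus strand) are given from 5′ to 3′ on the gene's strand, with capitals marking the GC box letters GGGCGG on either strand.
Sdc1: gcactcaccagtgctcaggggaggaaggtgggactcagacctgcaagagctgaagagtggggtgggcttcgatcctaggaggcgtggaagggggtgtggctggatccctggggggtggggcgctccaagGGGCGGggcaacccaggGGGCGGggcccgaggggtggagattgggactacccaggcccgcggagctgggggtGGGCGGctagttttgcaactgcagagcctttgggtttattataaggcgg
Sdc4: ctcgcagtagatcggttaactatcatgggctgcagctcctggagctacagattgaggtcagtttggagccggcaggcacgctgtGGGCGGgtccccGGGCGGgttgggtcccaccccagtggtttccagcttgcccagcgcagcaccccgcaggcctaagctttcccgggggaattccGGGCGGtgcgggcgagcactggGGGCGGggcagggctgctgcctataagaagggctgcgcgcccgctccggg
The GC box letters occurred 3 times in the *Sdc1* window and 4 times in that of *Sdc4*, with the nearest match 49 and 50 bases before the start site, and in 35.7% of 32841 windows of the same length. The TCF/LEF letters AACAAAG or ATCAAAG or TACAAAG or TTCAAAG, searched on both strands, were present in 16.9% of all windows and in neither of these, and the same held for the SOX letters AACAATG or ATCAATG or TACAATG or TTCAATG, which were present in 9.73%. None of the searched motifs overlapped another in these windows. The start sites are those of RefSeq and differ from the gene bounds in GENCODE M21. There *Sdc1* begins at 8771323, inside its window, and the *Sdc4* span runs to 164443887, so that its whole window lies within that span.

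*Sulf1* (ENSMUSG00000016918, chr1:12692277-12861192, GRCm38, plus strand) differed most between C59 and DMSO among the 9 genes. At 1 h its levels were 32.2, 29.4 and 34.2 CPM in the 3 DMSO libraries and 29.4, 31.5 and 29.3 CPM in the 3 C59 libraries. At 6 h they were 44.3, 49.8 and 42.2 CPM in DMSO and 46.1, 51.7 and 39.1 CPM in C59. The groups overlapped at both times, and the log2 fold change at 6 h was -0.00098 ± 0.091 (edgeR, adjusted p = 0.995).

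At 12 h the *Sulf1* levels were 62.0, 75.1 and 56.8 CPM in DMSO, against 208, 234 and 287 CPM in C59. Every C59 library was above every DMSO library, the log2 fold change was 1.91 ± 0.12, which is 3.76-fold (edgeR, adjusted p = 1.36e-06), and in these bulk samples a different number of cells of a type and a different amount of RNA per cell cannot be told apart. The C59 effect on *Sulf1* changed between 6 and 12 h by 1.91 ± 0.17 on the log2 scale (edgeR interaction, adjusted p = 3.9e-06). Over the alternatives tried, the 12 h value lay between 1.78 and 2.02 and stayed past the threshold in 16 of 16.

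*Sulf1* was still higher at 18 h, with 113, 139 and 118 CPM in the controls and 181, 213 and 187 CPM after C59. The groups did not overlap, the difference was 0.67 ± 0.11 on the log2 scale (edgeR, adjusted p = 0.00974), and it was 0.69 (adjusted p = 0.00356) without C59 18 h replicate 3. The adjusted p was 0.0536 without DMSO 18 h replicate 1 and 0.0725 without DMSO 18 h replicate 3. At 24 h the C59 libraries had 170, 183 and 215 CPM and lay below the DMSO libraries with 230, 219 and 227 CPM, but the log2 fold change of -0.25 ± 0.074 missed the threshold (edgeR, adjusted p = 0.0671). Without C59 24 h replicate 3 the 24 h value was -0.34 (adjusted p = 0.00916), and with DESeq2 it was -0.25 (adjusted p = 0.0316). The C59 effect fell by 1.24 ± 0.18 between 12 and 18 h (edgeR interaction, adjusted p = 0.000862) and by 0.92 ± 0.13 between 18 and 24 h (adjusted p = 0.00169). Without C59 18 h replicate 3 these changes were -1.22 and -0.94.

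**Figure D1:**
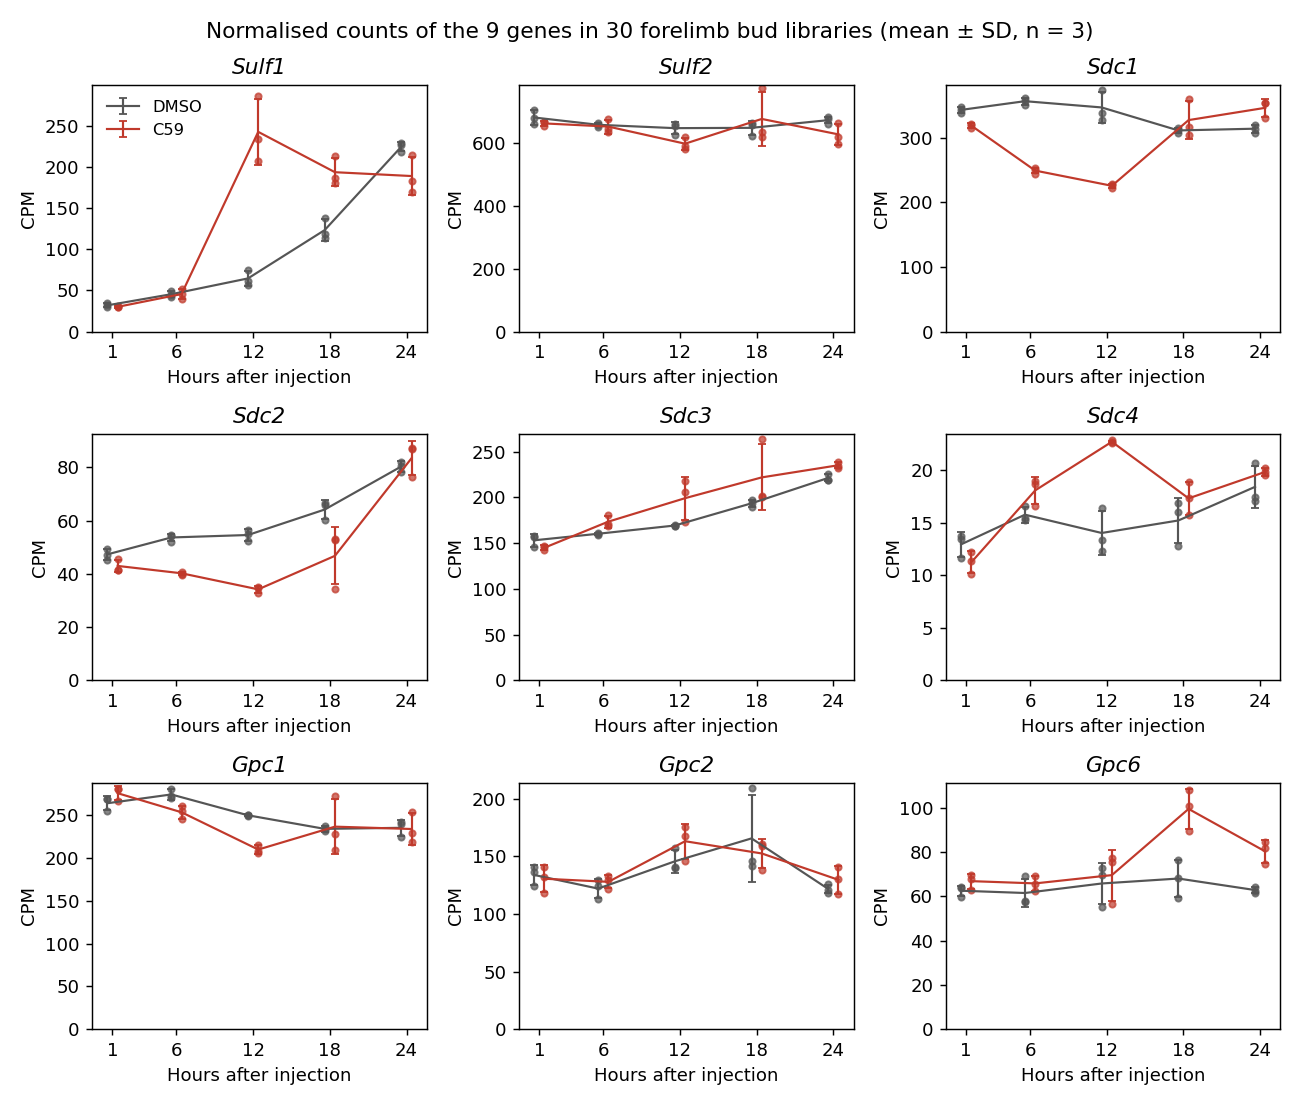
Normalised counts (CPM, y axis) of the 9 genes against hours after injection, with 1 point per library and lines through the mean ± SD of 3 libraries for DMSO (grey) and C59 (red). *Sulf1* in C59 was at 208 to 287 CPM at 12 h, where DMSO was at 56.8 to 75.1 CPM, and DMSO reached 219 to 230 CPM at 24 h.

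In the DMSO controls *Sulf1* rose at each step of the series. The log2 fold change was 0.51 ± 0.099 from 1 to 6 h (edgeR, adjusted p = 0.00473), 0.51 ± 0.096 from 6 to 12 h, 0.94 ± 0.092 from 12 to 18 h and 0.86 ± 0.088 from 18 to 24 h. The rise over the whole interval was 2.82 ± 0.097, or 7.04-fold (adjusted p = 6.33e-13). The level in C59 at 12 h was therefore set beside DMSO at 24 h, using the 6 libraries of these groups. The log2 difference was 0.15 ± 0.09 (edgeR, adjusted p = 0.206) and the groups overlapped. It was 0.25 (adjusted p = 0.0144) without C59 12 h replicate 1, and this comparison shares libraries with those above.

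*Sulf2* (ENSMUSG00000006800, chr2:166073089-166155663, minus strand), which encodes the second enzyme of the same activity, stayed between 584 and 776 CPM over all 30 libraries. Its levels were 657, 661 and 628 CPM in DMSO at 12 h and 592, 621 and 584 CPM in C59. The groups did not overlap, and the log2 fold change was -0.11 ± 0.039 (edgeR, adjusted p = 0.0348). This small difference depended on the scaling, since it was -0.03 (adjusted p = 0.534) with upper-quartile factors, and the call was also lost on the FPKM values (limma, adjusted p = 0.46), with all 30 libraries sharing the spread (edgeR, adjusted p = 0.123) and without any 1 of 4 of the 6 libraries, where adjusted p was 0.121 (DMSO replicate 1), 0.0728 (DMSO replicate 2), 0.111 (C59 replicate 1) and 0.129 (C59 replicate 3). At 1, 6, 18 and 24 h no difference passed, with log2 fold changes between -0.09 and 0.08, and the 18 h value of 0.08 was -0.03 without C59 18 h replicate 3. Of the exonic bases of *Sulf2*, 2.62% are shared with *Ncoa3* on the opposite strand.

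The 2 enzymes can be compared on the FPKM scale. The ratio of *Sulf2* to *Sulf1* in DMSO was 26.8 ± 2.54 (SD, n = 3) at 1 h, 12.4 ± 1.37 at 12 h and 3.64 ± 0.11 at 24 h. In C59 it was 27.2 ± 0.973 at 1 h and 3.09 ± 0.536 at 12 h. At 12 h the C59 libraries spanned 2.49 to 3.52 and the DMSO libraries 10.9 to 13.4.

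**Figure D2:**
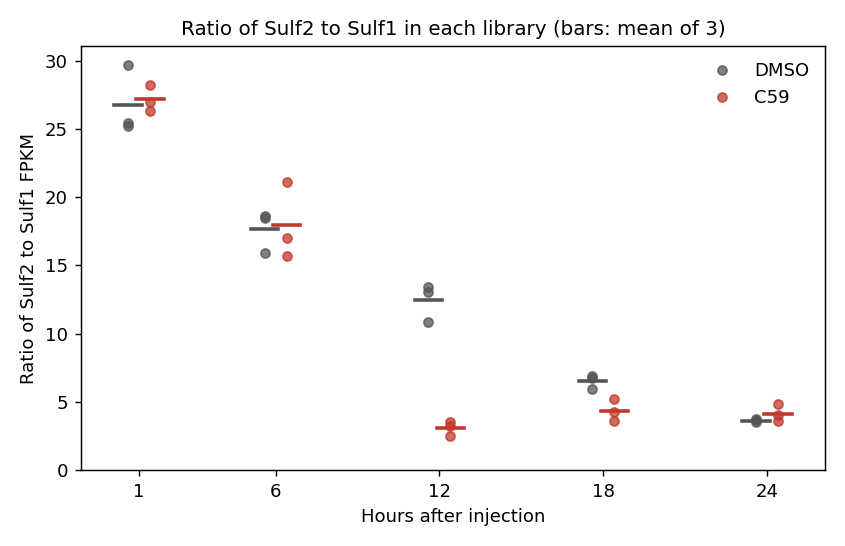
Ratio of *Sulf2* to *Sulf1* FPKM (y axis) in each of the 30 libraries against hours after injection, with bars at the mean of 3 for DMSO (grey) and C59 (red). The ratio was 2.49 to 3.52 in C59 at 12 h, 10.9 to 13.4 in DMSO at 12 h and 3.51 to 3.72 in DMSO at 24 h.

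*Sdc1* (ENSMUSG00000020592, chr12:8771323-8793715, plus strand), the main syndecan of epithelia, which is also found in embryonic mesenchyme, was lower in C59 from 6 h. At 6 h its levels were 358, 351 and 361 CPM in DMSO and 244, 250 and 253 CPM in C59. At 12 h they were 338, 328 and 374 CPM in DMSO and 227, 222 and 229 CPM in C59. All C59 libraries were below all DMSO libraries at both times, with log2 fold changes of -0.52 ± 0.042 (edgeR, adjusted p = 2.1e-06) and -0.62 ± 0.053 (adjusted p = 8.04e-06). At 1 h the value was -0.11 ± 0.036 (adjusted p = 0.151), and the effect changed by -0.41 ± 0.05 between 1 and 6 h (edgeR interaction, adjusted p = 2.72e-05).

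By 18 h *Sdc1* levels were 317, 305 and 360 CPM in C59 and 312, 308 and 314 CPM in DMSO, and the groups overlapped. The log2 fold change was 0.09 ± 0.093, and 0.01 without C59 18 h replicate 3. The C59 effect rose by 0.72 ± 0.11 between 12 and 18 h (edgeR interaction, adjusted p = 0.00152), and by 0.64 (adjusted p = 0.000161) without C59 18 h replicate 3. At 24 h the log2 fold change was 0.15 ± 0.057 (adjusted p = 0.15). Of the 8 surface ectoderm markers 6 were higher and none lower in C59 at 12 h, with summed levels of 375 to 506 CPM against 271 to 303 CPM in DMSO. Of all genes 22.0% passed as higher and 25.5% as lower at 12 h, and 8.20% and 11.4% at 6 h. At 6 h 1 of the ectoderm markers was higher and 2 were lower, with sums of 289 to 296 CPM in C59 and 268 to 294 CPM in DMSO. Of the 6 limb mesenchyme markers 5 were lower at 6 h, and at 12 h 5 were lower and *Tbx5* was higher by 0.21 ± 0.076. Their sum at 12 h was 1080 to 1148 CPM in C59 against 1669 to 1755 CPM in DMSO. The part of ectoderm and mesenchyme in the *Sdc1* difference was not tested.

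*Sdc2* (ENSMUSG00000022261, chr15:32920723-33034935, plus strand), a syndecan of mesenchymal cells, was also lower in C59 at 6 and 12 h. Its levels at 6 h were 54.2, 52.1 and 54.7 CPM in DMSO and 40.8, 39.8 and 40.1 CPM in C59, a log2 fold change of -0.42 ± 0.055 (edgeR, adjusted p = 0.000135). At 12 h they were 52.4, 56.6 and 54.9 CPM in DMSO and 34.8, 35.1 and 32.7 CPM in C59, a log2 fold change of -0.67 ± 0.06 (adjusted p = 9.81e-06). The groups did not overlap at either time. At 6 h sex and treatment cannot be told apart for *Sdc1* and *Sdc2* or for any other gene, and at 12 h 1 library of each arm carried Y-linked transcripts.

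At 18 h *Sdc2* had 60.1, 66.0 and 66.5 CPM in DMSO and 52.8, 53.1 and 34.5 CPM in C59, the last being replicate 3. The log2 fold change of -0.44 ± 0.16 missed the threshold (edgeR, adjusted p = 0.134), but without C59 18 h replicate 3 it was -0.26 (adjusted p = 0.0353), and with all 30 libraries sharing the spread it was -0.46 (adjusted p = 0.00075). At 24 h the groups overlapped, with 78.4, 82.2 and 80.6 CPM in DMSO and 76.2, 87.1 and 87.2 CPM in C59. In DMSO *Sdc2* rose by 0.77 ± 0.053 on the log2 scale from 1 to 24 h (adjusted p = 2.64e-09). At 12 h after C59 it was below DMSO at 24 h by a log2 difference of -1.19 ± 0.053 (edgeR, adjusted p = 1.09e-07).

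*Sdc4* (ENSMUSG00000017009, chr2:164424247-164443887, minus strand), a component of focal adhesions and the least abundant of the 9 genes, was higher in C59 at 12 h. Its levels were 22.8, 22.6 and 22.7 CPM in C59 and 13.4, 16.4 and 12.3 CPM in DMSO, without overlap, and the log2 fold change was 0.70 ± 0.10 (edgeR, adjusted p = 0.000309). At 6 h the value was 0.19 ± 0.087 (adjusted p = 0.138) and at 18 h it was 0.20 ± 0.13 (adjusted p = 0.401), or 0.26 without C59 18 h replicate 3 (adjusted p = 0.2). The increase of the effect from 6 to 12 h was 0.50 ± 0.14 (edgeR interaction, adjusted p = 0.0177). These levels rest on 218 to 538 counts per library at 12 h.

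*Sdc3* (ENSMUSG00000025743, chr4:130792537-130826319, plus strand), a syndecan known from neural tissue and limb cartilage, rose slowly in the controls by 0.53 ± 0.039 from 1 to 24 h (adjusted p = 5.41e-09). At 12 h its levels were 218, 206 and 173 CPM in C59 and 169, 168 and 170 CPM in DMSO. The groups did not overlap, although the lowest C59 library lay close to the controls, and the log2 fold change was 0.23 ± 0.074 (edgeR, adjusted p = 0.0237). This call was lost without any 1 of 5 of the 6 libraries, with adjusted p of 0.0704, 0.0588 and 0.0581 without DMSO replicate 1, 2 or 3 and of 0.0575 and 0.058 without C59 replicate 1 or 2. Exonic bases of *Sdc3* are shared with *Gm26716* on the opposite strand to 6.93%.

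The makeup of the syndecan family differed between the arms at 6 and 12 h. The 4 syndecans summed to 134 ± 5.63 FPKM in DMSO and 114 ± 4.63 FPKM in C59 at 12 h (SD, n = 3). *Sdc1* made up 64.6% ± 2.32 of this sum in DMSO and 53.0% ± 2.32 in C59, and *Sdc3* made up 22.9% ± 1.13 and 33.2% ± 2.38. *Sdc2* made up 9.27% ± 0.621 and 7.32% ± 0.172, and *Sdc4* 3.20% ± 0.613 and 6.45% ± 0.187. The ranges of the 2 arms did not overlap for any of the 4 shares. At 6 h, when embryo sex also differed, *Sdc1* made up 66.1% ± 0.476 in DMSO and 57.5% ± 0.965 in C59. The 6 h shares of *Sdc3* were 21.3% ± 0.504 and 28.8% ± 0.800, and those of *Sdc4* 3.62% ± 0.227 and 5.02% ± 0.419. These 6 h ranges did not overlap, while those of *Sdc2* did. At 24 h *Sdc1* made up 55.1% ± 0.602 in DMSO and 56.2% ± 1.35 in C59, with overlapping ranges.

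*Gpc6* (ENSMUSG00000058571, chr14:116925315-117976544, plus strand), a glypican known for its role in the growth of long bones, passed the threshold at 18 and 24 h. At 12 h its levels were 77.1, 75.3 and 56.4 CPM in C59 and 72.7, 69.6 and 55.2 CPM in DMSO, and the groups overlapped. At 18 h they were 108, 101 and 89.8 CPM in C59 and 59.5, 76.4 and 68.3 CPM in DMSO, and at 24 h 74.6, 81.8 and 84.5 CPM in C59 and 64.4, 62.5 and 61.7 CPM in DMSO. All C59 libraries were above all DMSO libraries at both times, with log2 fold changes of 0.56 ± 0.12 (edgeR, adjusted p = 0.024) and 0.36 ± 0.065 (adjusted p = 0.00736).

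Without C59 18 h replicate 3 the 18 h value for *Gpc6* was 0.63 (adjusted p = 0.00494). The 18 h call was lost without DMSO replicate 1 (adjusted p = 0.097) or 3 (adjusted p = 0.112) and without C59 replicate 1 (adjusted p = 0.0637) or 2 (adjusted p = 0.0853), and under the replicate block (adjusted p = 0.0591). The 24 h call was lost with all 30 libraries sharing the spread (adjusted p = 0.0507), and at 6 h *Gpc6* passed when DMSO replicate 2 was left out (0.18, adjusted p = 0.0429). The change of the effect from 12 to 18 h was 0.49 ± 0.19 and missed the threshold (edgeR interaction, adjusted p = 0.126), as it did without C59 18 h replicate 3 (0.55, adjusted p = 0.0619). In DMSO *Gpc6* changed by 0.01 ± 0.097 from 1 to 24 h (adjusted p = 0.951).

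*Gpc1* (ENSMUSG00000034220, chr1:92831645-92860779, plus strand), a widely expressed glypican, fell in C59 at 12 h by 0.25 ± 0.039 on the log2 scale (edgeR, adjusted p = 0.000421). Its levels were 249, 250 and 251 CPM in DMSO and 216, 209 and 205 CPM in C59, without overlap. At 6 h the value was -0.12 ± 0.044 (adjusted p = 0.0737), or -0.13 without DMSO 6 h replicate 2 (adjusted p = 0.0381). At 18 h it was 0.03 ± 0.11 (adjusted p = 0.88), or -0.08 without C59 18 h replicate 3 (adjusted p = 0.371), and at 24 h the groups overlapped (adjusted p = 0.991). Of the exonic bases of *Gpc1*, 18.9% are shared with *Ankmy1* on the opposite strand.

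*Gpc2* (ENSMUSG00000029510, chr5:138273655-138280005, minus strand), a glypican of the developing nervous system, did not pass at any time in the comparison of C59 with DMSO. At 12 h it had 175, 146 and 168 CPM in C59 and 157, 139 and 140 CPM in DMSO, with overlap, and the log2 fold change was 0.16 ± 0.071 (edgeR, adjusted p = 0.0835). It was 0.25 (adjusted p = 0.017) with upper-quartile factors, 0.16 (adjusted p = 0.0173) under the replicate block, 0.25 (limma, adjusted p = 0.00977) on log2(FPKM + 1), 0.22 (adjusted p = 0.048) without DMSO replicate 1 and 0.25 (adjusted p = 0.00938) without C59 replicate 2. The gene *Gm43720* on the same strand covers 55.6% of the exonic bases of *Gpc2*, so how the counts were split between them is uncertain.

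**Figure D3:**
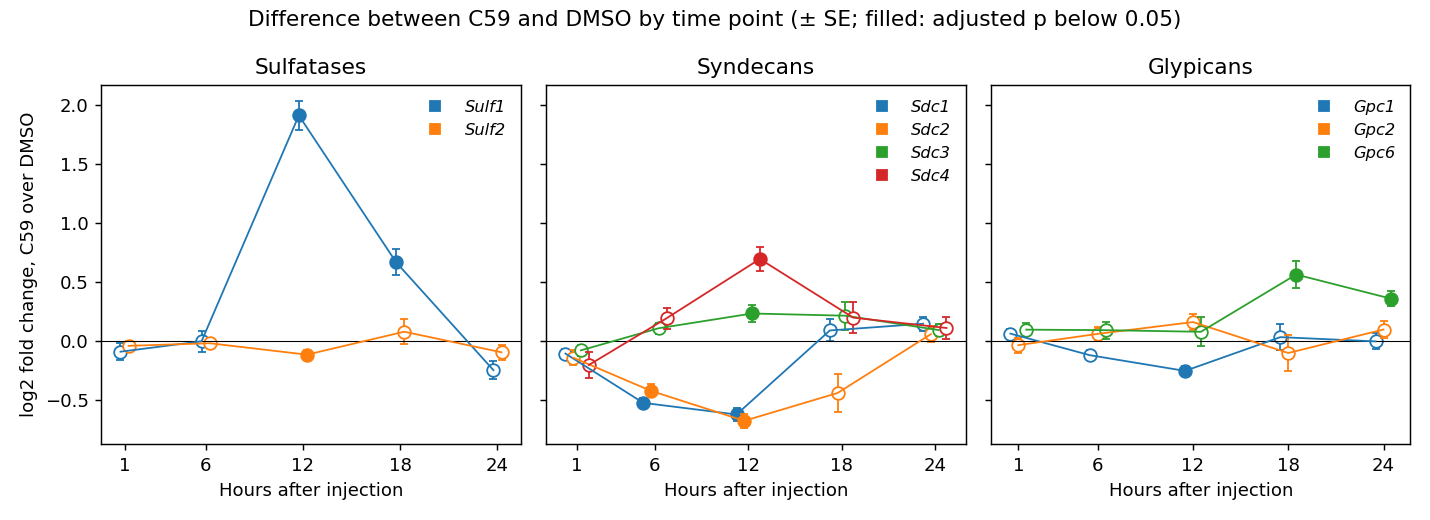
Log2 fold change of C59 over DMSO (y axis, ± SE from edgeR, 6 libraries per time point) against hours after injection for sulfatases, syndecans and glypicans, with filled points for adjusted p below 0.05. *Sulf1* stood at 1.91 at 12 h and 0.67 at 18 h, *Sdc1* and *Sdc2* were lowest at 12 h with -0.62 and -0.67, and *Gpc6* passed at 18 and 24 h.

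Counted over the set, no gene passed at 1 h with edgeR or with DESeq2, where 2.75% of 13076 genes passed with edgeR. An unadjusted p below 0.05 was found for 2 genes (*Sdc1* and *Sdc2*), and the share of all genes at that level was not counted. At 6 h 2 of 9 passed, both lower, against 19.6% of all genes and 11.4% as lower, and at 12 h 7 of 9 passed, 3 higher and 4 lower, against 47.5%. At 18 h 2 of 9 passed, both higher, against 7.08% and 3.46% as higher, and at 24 h 1 of 9 passed, higher, against 6.44% and 2.88% as higher. *Sulf1* at 12 h was beyond 2-fold, as were 4.95% of genes, and the median log2 fold change of the 9 genes at 12 h was 0.08, against 0.02 over all genes tested. Genes of the set whose C59 effect changed numbered 4 of 9 between 1 and 6 h (13.0% of all genes), 3 of 9 between 6 and 12 h (18.1%), 2 of 9 between 12 and 18 h (8.49%) and 1 of 9 between 18 and 24 h (6.96%).

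In DMSO the set moved in both directions with time. From 1 to 24 h 4 of 9 were higher (*Sulf1*, *Sdc2*, *Sdc3* and *Sdc4*, the last by 0.51 ± 0.12) and 2 were lower (*Gpc1* by 0.16 ± 0.04 and *Sdc1* by 0.13 ± 0.044), where 56.5% of all genes passed. Step by step, *Sulf1* alone passed from 1 to 6 h (6.47% of genes) and from 6 to 12 h (4.41%). From 12 to 18 h 4 of 9 passed (14.0%), namely *Sulf1*, *Sdc2* by 0.24 ± 0.053, *Sdc3* by 0.19 ± 0.039 and *Sdc1*, which decreased by 0.16 ± 0.044. This *Sdc1* call was lost without DMSO 12 h replicate 3 (-0.10, adjusted p = 0.159) or 18 h replicate 2 (adjusted p = 0.0866), with upper-quartile factors (adjusted p = 0.0573) and on the 6 libraries alone (adjusted p = 0.12), and the fall from 1 to 24 h was past the threshold in 8 of 12 alternatives. From 18 to 24 h 4 of 9 passed (12.0%), with *Sulf1*, *Sdc2* and *Sdc3* higher and *Gpc2* lower by 0.44 ± 0.11. Over the alternatives *Gpc2* lay between -0.55 and -0.24 and passed in 9 of 12. Its DMSO levels were 209, 141 and 146 CPM at 18 h, the first being replicate 1, and 126, 118 and 120 CPM at 24 h. C59 at 12 h differed from DMSO at 24 h in 6 of 9 genes (38.9% of all genes, 18.8% higher and 20.1% lower), with *Sdc4* and *Gpc2* higher and *Sulf2*, *Sdc1*, *Sdc2* and *Gpc1* lower. Of these, *Gpc1* (-0.12) passed in 5 of 12 alternatives, with adjusted p up to 0.14, and *Sulf2* (-0.13) in 8 of 12, with adjusted p up to 0.0856.

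Genes that build or remodel heparan sulfate, with related secreted proteins such as *Notum*, were read from 7 lists of 51 genes, of which 45 could be tested at 12 h. At 6 h 3 were higher and 2 lower, where 8.20% of all genes passed as higher and 11.4% as lower. Sex and treatment cannot be told apart at 6 h. *Notum*, which encodes a secreted enzyme that inactivates WNT ligands, was lower by 3.42 ± 0.27 on the log2 scale (edgeR, adjusted p = 1.87e-06), and *Ext1*, a chain polymerase, fell by 0.34 ± 0.053. Among the genes that were higher, *Agrn*, the core protein agrin, had a log2 fold change of 0.23 ± 0.048 and *Hs3st4*, a 3-O-sulfotransferase, of 1.37 ± 0.39 at levels under 1 CPM.

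At 12 h 20 of 45 were higher and 4 lower, where 22.0% of all genes passed as higher and 25.5% as lower. The median log2 fold change of the 45 genes was 0.17. Among the genes of sulfate donor supply, 4 of 5 were higher, led by *Papss2*, which makes the sulfate donor PAPS, with 30.6, 18.9 and 17.1 CPM in C59 and 10.33, 10.97 and 10.46 CPM in DMSO and a log2 fold change of 1.06 ± 0.19 (edgeR, adjusted p = 0.00121). All C59 libraries were above the controls. *Slc35b2*, which carries PAPS into the Golgi, was higher by 0.47 ± 0.051, *Papss1* by 0.35 ± 0.045 and *Slc35b3* by 0.34 ± 0.11, and *Slc26a2*, the sulfate transporter of cartilage, had -0.05 ± 0.06 (adjusted p = 0.52).

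Among the chain modification genes, 6 of 13 were higher and 1 was lower at 12 h. *Hs6st1*, which adds the 6-O-sulfate groups that SULF enzymes remove, was higher by 0.37 ± 0.05 (edgeR, adjusted p = 0.00016), and the 3-O-sulfotransferase genes *Hs3st3a1* and *Hs3st3b1* by 0.76 ± 0.11 and 0.44 ± 0.065. *Hs3st5* and *Ndst4* were beyond 2-fold at low levels, with 1.53 to 1.70 and 2.12 to 2.52 CPM in C59 and 0.17 to 0.557 and 0.283 to 1.17 CPM in DMSO. *Ndst1*, the main N-deacetylase and N-sulfotransferase, was lower by 0.16 ± 0.04. In the chain polymerisation list 2 of 5 were higher, *Extl1* with 1.03 ± 0.28 and *Ext2*, and *Extl3* was lower.

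Of the linker assembly genes 2 of 7 were higher, *B4galt7* with 0.32 ± 0.092 and *Pxylp1*. Of the other core proteins 2 of 5 were higher, *Hspg2* (perlecan) with 0.50 ± 0.18 and *Agrn* with 0.47 ± 0.059, and of the lysosomal genes 3 of 7 were higher and *Gusb* was lower by 0.35 ± 0.068. In the list of secreted enzymes and related proteins, *Hpse2* was higher by 0.92 ± 0.09 and *Notum* lower by 3.75 ± 0.28. *Notum* had 0.817, 0.294 and 0.598 CPM in C59 and 6.64, 8.29 and 7.69 CPM in DMSO, without overlap.

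By 18 h 2 of 46 pathway genes tested passed, *Agrn* (0.59) and *Arsg* (0.88), against 7.08% of all genes, and at 24 h again 2 passed, *B3galt6* (0.36) and *Extl1* (0.43), against 6.44%. Leaving out 1 library moved these counts to 0 to 8 at 18 h, with 8 without C59 replicate 3, and to 0 to 6 at 24 h, with 6 without C59 replicate 1. At 1 h none of 44 passed with edgeR or DESeq2, against 2.75% of all genes with edgeR. An unadjusted p below 0.05 was found for 6, and the share of all genes at that level was not counted. In DMSO from 1 to 24 h 27 of 46 pathway genes were higher and 4 lower, with 28.9% of all genes higher and 27.6% lower. Chain modification genes accounted for 11 of these rises, of 14 tested, and *Papss2* rose by 3.79 ± 0.16.

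**Figure D4:**
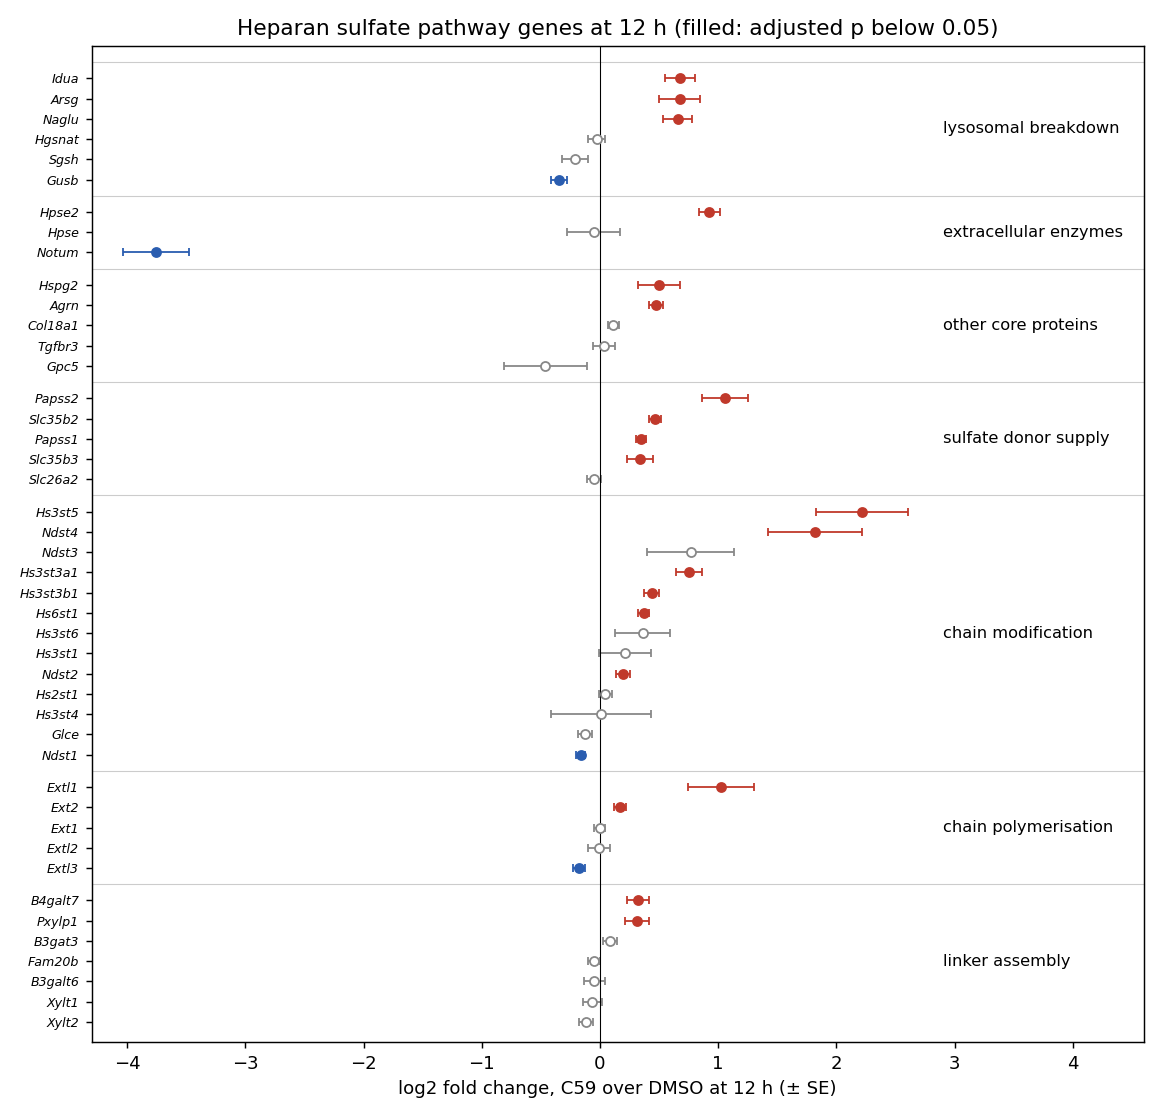
Log2 fold change of C59 over DMSO at 12 h (x axis, ± SE from edgeR) for 44 of the 45 heparan sulfate pathway genes tested, grouped by step, with filled points for adjusted p below 0.05 (red higher, blue lower). Of these, 20 were higher and 4 lower, with *Hs3st5* at 2.22 and *Notum* at -3.75 at the ends.

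Markers of cell types moved with these results at 12 h. Of 6 prechondrogenic markers 5 were higher and none lower in C59, with sums of 1968 to 2712 CPM against 1035 to 1098 CPM in DMSO, and *Sox9*, the early regulator of cartilage, had 681, 584 and 538 CPM against 263, 285 and 245 CPM. *Sox9* was already higher at 6 h, by 0.72 ± 0.053 (edgeR, adjusted p = 1.0e-06), when *Sulf1* was not. At that time sex and treatment cannot be told apart. At 18 h 4 of 6 prechondrogenic markers were higher, where 3.46% of all genes passed as higher. Their sums were 1820 to 2176 CPM in C59 against 1162 to 1341 CPM in DMSO. The lowest C59 sum was that of replicate 3, and no marker values without it are given. *Acan* was under 1 CPM in the DMSO groups to 12 h. At 12 h 5 of 6 macrophage markers, 3 of 4 Schwann cell precursor markers and 3 of 6 endothelial markers were higher, 4 of 6 muscle progenitor markers were lower and 1 higher, and 1 of 6 blood genes was higher, where 22.0% of all genes passed as higher and 25.5% as lower. The part of these cell types in the *Sulf1*, *Sdc4* and pathway differences was not tested.

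The genes most like each member in level over the 30 libraries were ranked by Pearson's r of log2 CPM among 12540 genes. These values are descriptions, since the libraries share time points, treatments and depth. For *Sulf1* they were *C1qtnf3* (r = 0.976), *Mmp14* (0.974) and *Parm1* (0.974), and for *Sdc3* *Atp9a* (0.964), *Fkbp10* (0.961) and *Thra* (0.953). *Sdc1* was most like *Klf16* (0.945), *Aen* (0.941) and *Polr3e* (0.939), and *Sdc2* most like *Lmo7* (0.943), *Chst2* (0.918) and *Pcolce2* (0.918). *Sdc4* was most like *Rhoq* (0.898), *Ackr3* (0.893) and *Arhgap29* (0.882), and *Gpc1* most like *Ttll12* (0.918), *Csnk1g2* (0.916) and *Mdh2* (0.912). For *Gpc2* these were *Mthfsd* (0.867), *Akap8l* (0.850) and *Leng8* (0.829), for *Gpc6* *Med13l* (0.827), *Cdon* (0.825) and *Ror1* (0.811), and for *Sulf2* *Extl3* (0.766), *Scap* (0.757) and *Zfp423* (0.750). Among the members themselves *Sulf1* and *Sdc3* were the most alike (r = 0.870) and *Sulf1* and *Gpc1* the least (r = -0.797).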

How the data were processed

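PolyA RNA of 30 forelimb bud libraries (18188636 to 38974885 counts each) was sequenced. Adapters were removed by the authors with Cutadapt 1.16, and alignment to mm10 was done with STAR 2.7.0e on a custom annotation. The deposited counts are raw fragment counts per gene written by STAR, without genes of chromosomes X, Y and M. The deposited FPKM values were computed by the authors with Cufflinks 2.2.1, run as unstranded. The strand of counting is not given in the sources used here.

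Counts of protein-coding genes (biotypes from GENCODE M21) were fitted with edgeR 4.0.16 (TMM factors, quasi-likelihood F test, low genes removed by filterByExpr at 10 counts and 15 in total) in R 4.3.3. Each time point was fitted on its 6 libraries, each change of the C59 effect on 12, and the DMSO series on 15 in 1 fit. Calls needed a Benjamini-Hochberg adjusted p below 0.05 over all genes tested. FPKM was used to compare levels between genes, and CPM shown was scaled with TMM factors over all 30 libraries. DESeq2 1.42.0 and limma 3.58.1 on log2(FPKM + 1), which understates changes of low genes, served as alternatives. All 9 members, the pathway genes beyond 2-fold or at the ends of their list at 12 h, *Axin2*, *Sox9*, the 3 most similar genes per member, *Gpc3*, *Gpc4* and the marker lists were named. Other pathway genes were named after their values were seen, and 1 gene of the lists is counted but not reported here on its own. The members and lists were chosen with earlier results of these data known. Replicate numbers were not treated as pairs, because 1 of 15 same-numbered pairs correlated above 0.1. Replicates are separate embryos, which the study's methods for embryo collection take from several litters, and the litter of each library is not given in the labels, so p-values measure the spread between these samples.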

Additional observations from a re-analysis of the deposited data

Results flagged for a closer look

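The effect of C59 differed between neighbouring time points for 6 of the 9 genes by a test of the difference itself (edgeR interaction, 12 libraries each). In the order of the steps, 13.0%, 18.1%, 8.49% and 6.96% of all genes passed, and the share passing in any step was not counted. The steps from 1 to 6 h and from 6 to 12 h use the 6 h libraries, where sex and treatment cannot be told apart. Between 1 and 6 h the log2 effect changed by -0.41 for *Sdc1* (adjusted p = 2.72e-05), -0.28 for *Sdc2* (0.0259), 0.19 for *Sdc3* (0.0464) and -0.18 for *Gpc1* (0.0456). Between 6 and 12 h it changed by 1.91 for *Sulf1* (3.9e-06), -0.26 for *Sdc2* (0.0241) and 0.50 for *Sdc4* (0.0177). Between 12 and 18 h it changed by -1.24 for *Sulf1* (0.000862) and 0.72 for *Sdc1* (0.00152), and between 18 and 24 h by -0.92 for *Sulf1* (0.00169). The calls for *Sdc3* and *Gpc1* between 1 and 6 h were lost without any of several single libraries, with adjusted p up to 0.134 for *Sdc3* (without C59 6 h replicate 1) and 0.127 for *Gpc1* (without C59 6 h replicate 1). That for *Sdc2* between 1 and 6 h reached 0.0774 without C59 1 h replicate 3, and between 6 and 12 h 0.076 without C59 12 h replicate 3. Over all alternatives, *Sdc3* and *Gpc1* each passed in 5 of 18 between 1 and 6 h. *Sdc2* passed in 12 of 18 between 1 and 6 h and in 9 of 18 between 6 and 12 h. With all 30 libraries sharing the spread, adjusted p was 0.347 for *Sdc3*, 0.296 for *Gpc1*, and 0.272 and 0.244 for *Sdc2* (edgeR interaction).

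2 further glypicans on chromosome X, present in the FPKM table alone, had every C59 library above every DMSO library at several times. *Gpc3* had a mean of 471 FPKM in C59 and 409 in DMSO at 12 h, 508 and 422 at 18 h, and 526 and 465 at 24 h. *Gpc4* had a mean of 10.9 FPKM in C59 and 9.64 in DMSO at 6 h, 15.02 and 9.88 at 12 h, 16.0 and 11.8 at 18 h, and 21.1 and 18.4 at 24 h. These values carry no test, and the share of all genes separated in this way was not counted. Of the genes tested at 12 h, none of them on chromosome X, 22.0% passed as higher in C59. Libraries with Y-linked transcripts above 10 FPKM numbered 3 of 3 in C59 and 0 of 3 in DMSO at 6 h, 1 and 1 at 12 h, 2 and 1 at 18 h, and 3 and 2 at 24 h. The part of embryo sex in these levels of X-linked genes was not tested.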

How the results depend on the processing

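For single members, no alternative turned a called value round. There were 720 alternative values for C59 against DMSO. In 21 of them a call was lost and in 13 a call was gained, most of them given beside the genes. Only values called in the main fit could lose a call. These were 0, 2, 7, 2 and 1 of 9 at 1, 6, 12, 18 and 24 h, with 16 alternatives each. Under the replicate block the count of members passing was 1 at 18 h in place of 2, 2 for the change from 1 to 6 h in place of 4, 2 for DMSO from 1 to 6 h in place of 1, and pathway genes at 18 h were 1 in place of 2. With a paired fit of other counts no count moved by more than 1.5 times, and 1 of 15 same-numbered pairs correlated above 0.1 (range -0.248 to 0.147). With DESeq2, 2 members passed at 24 h, 2 for DMSO from 1 to 6 h and 2 from 6 to 12 h, and pathway genes were 3 at 6 h and 6 at 18 h. DESeq2 size factors gave 2 members for DMSO from 1 to 6 h. Without a filter on low counts 2 members passed at 24 h and 2 for the change from 1 to 6 h. With all 30 libraries sharing the spread, members were 0 at 24 h, 1 for the change from 1 to 6 h, 5 from 12 to 18 h and 2 from 18 to 24 h, and pathway genes were 13 at 18 h and 1 at 24 h. limma with either pseudocount (1 or 0.1) gave 3 pathway genes at 6 h and 1 at 24 h. When calls also had to be beyond 2-fold, the members passing numbered 1 at 12 h (*Sulf1*) and 0 at 6, 18 and 24 h, and the pathway genes numbered 2 at 6 h, 5 at 12 h and 0 later.

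Leaving out 1 library at a time, members passing were 2 to 4 at 6 h (4 without DMSO replicate 2), 5 to 7 at 12 h, 0 to 3 at 18 h (0 without DMSO replicate 1 or 3) and 1 to 2 at 24 h (2 without C59 replicate 3). For the change of effect they were 1 to 4 from 1 to 6 h, 2 to 3 from 6 to 12 h, 2 to 3 from 12 to 18 h and 1 to 2 from 18 to 24 h (2 without C59 18 h replicate 3). For DMSO they were 1 to 1 from 1 to 6 h and from 6 to 12 h, 3 to 4 from 12 to 18 h and from 18 to 24 h and 5 to 6 from 1 to 24 h, and for C59 12 h against DMSO 24 h 4 to 8. Pathway genes were 0 to 1 at 1 h (1 without DMSO replicate 3), 3 to 6 at 6 h, 18 to 24 at 12 h, 0 to 8 at 18 h (8 without C59 replicate 3) and 0 to 6 at 24 h (6 without C59 replicate 1). Where the cause of a move is not given by fewer samples or genes, the cause was not tested. The members had at least 192 counts in every library, whereas *Hs3st4*, *Hs3st5* and *Ndst4* lay near 1 CPM.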
